A study of Papio cynocephalus with 12 samples.

Results

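The 38 transcripts described here are those of genes of the NDUFA, NDUFAB, NDUFB, NDUFC, NDUFS and NDUFV series, chosen by 1 RefSeq accession per gene out of 40915 accessions in the count tables (41970 rows). Each of the 38 accessions had 1 row in every table. Other isoform accessions of the same genes were not used, so a value belongs to the named transcript and not to the whole gene. Whole-blood RNA of 12 yellow baboons (Papio cynocephalus) was sequenced at 0 hours, before any bacterial inoculation, with 1 library per animal. The reads of each animal were mapped to the human reference in 6 ways, which gave 72 columns of counts. Stampy and Bowtie2 were run on the transcriptome. TopHat2, a spliced aligner built on Bowtie2, and GSNAP, a spliced seed-and-extend aligner, were run on the genome, as were Stampy-G and Bowtie2-G, which are the unspliced aligners Stampy and Bowtie2 on that reference. The sample labels name mononuclear cells, while the collection tubes they describe take whole blood. Markers of blood cell types were not checked here, because no table pairing gene names with accessions was at hand.

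Complex I, the NADH dehydrogenase of the inner mitochondrial membrane, takes electrons from NADH, passes them along a chain of iron-sulfur clusters to ubiquinone and pumps protons across the membrane. It is L-shaped, with a matrix arm that holds the redox centres and a membrane arm that holds the pumps. The core subunits do the chemistry, the accessory subunits surround and stabilise them, and the pump cores are encoded by mitochondrial DNA and are not among the genes described here. In blood cells the complex belongs to the oxidative metabolism that lymphocytes and monocytes use more than neutrophils. By role, 7 of the 38 genes code for core subunits, 9 for accessory subunits of the matrix arm and 20 for accessory subunits of the membrane arm. NDUFAB1, the mitochondrial acyl carrier protein, sits in both arms, and NDUFA4 was first taken for a complex I subunit and is now assigned to complex IV, cytochrome c oxidase.

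Each animal has the same reads in its 6 columns, so a difference between methods concerns the assignment of reads and not the RNA of the animal. Total counts per column were 7249470 to 18911340, highest with Stampy and lowest with GSNAP. Levels are given as counts or as CPM, here counts per 1000000 read pairs that passed quality control in the animal, a depth common to its 6 columns. They were not divided by transcript length and were therefore not compared between genes. All pairs of animals in a table differed beyond sampling noise, with a chi-square of at least 24.3 per degree of freedom.

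A transcript is called detected here with at least 5 counts in every one of the 12 animals. Of the 38 transcripts, 31 were detected with Stampy, 29 with Bowtie2, 29 with TopHat2, 29 with Stampy-G, 27 with Bowtie2-G and 26 with GSNAP. The share of all 40915 accessions detected in this way was 33.4% with Stampy, 27.6% with Bowtie2, 26.6% with TopHat2, 26.2% with Stampy-G, 23.5% with Bowtie2-G and 21.4% with GSNAP. The same 26 transcripts were detected with every method. These were the core genes NDUFS3, NDUFS7, NDUFS8 and NDUFV2, the matrix-arm genes NDUFA5, NDUFA6, NDUFA7, NDUFA9, NDUFA12, NDUFS4, NDUFS6 and NDUFV3, the membrane-arm genes NDUFA1, NDUFA3, NDUFA8, NDUFA10, NDUFA13, NDUFB1, NDUFB2, NDUFB7, NDUFB8, NDUFB9, NDUFB10 and NDUFB11, and NDUFAB1 and NDUFA4. In the heat map of counts the gaps run along whole methods rather than along animals.

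**Figure D1:**
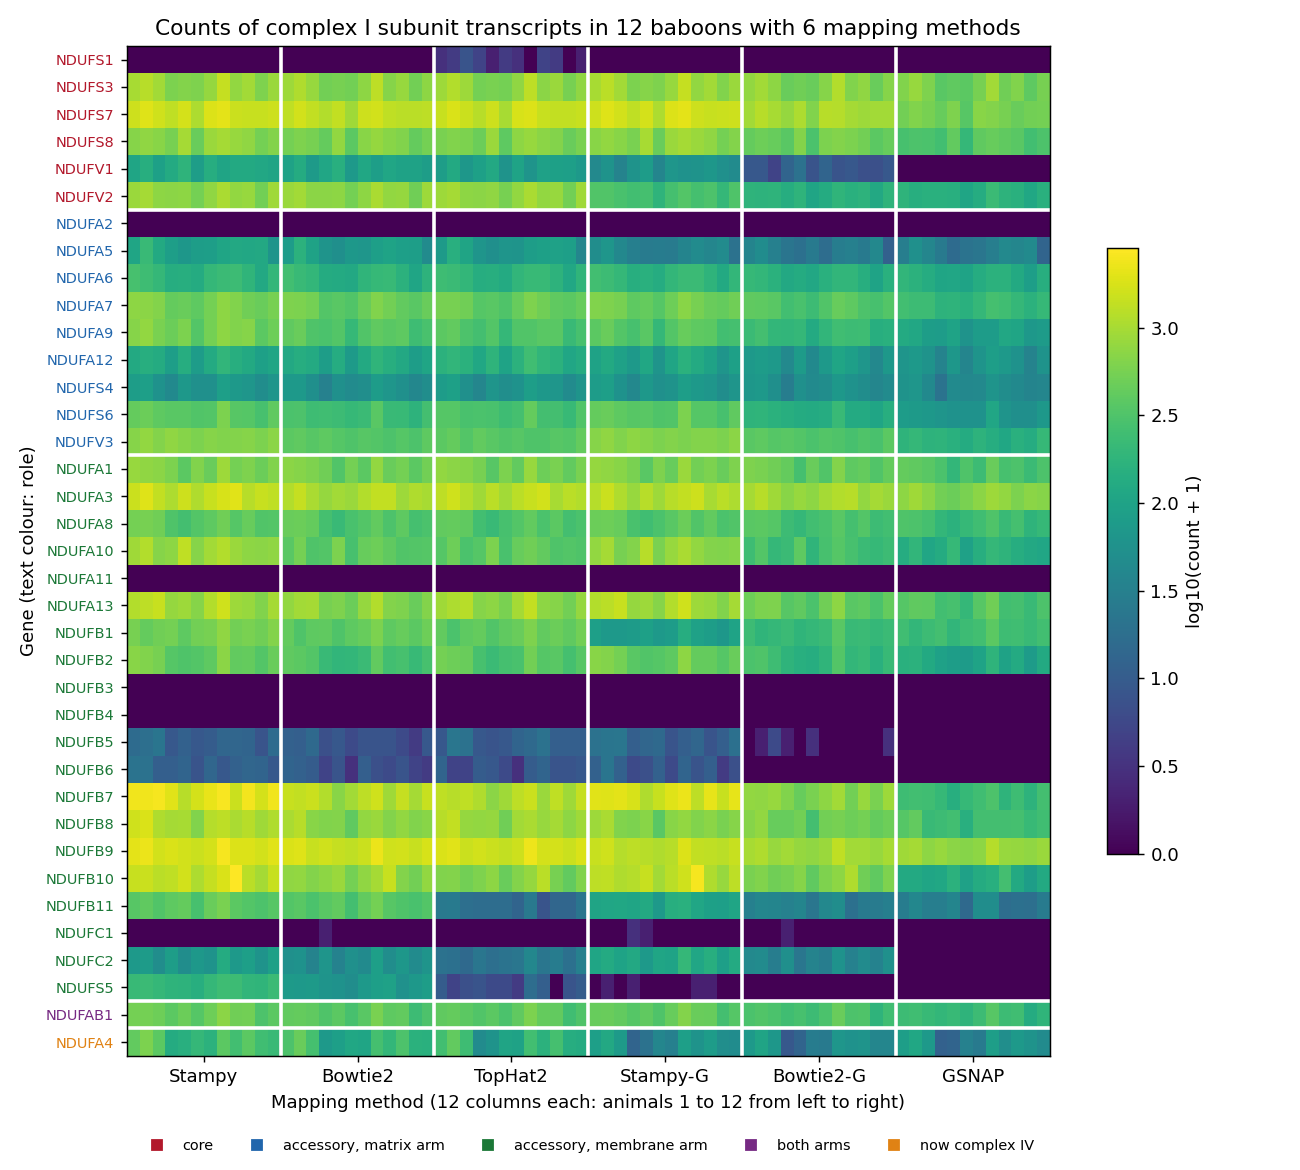
Counts of 37 of the 38 complex I subunit transcripts (rows, grouped and coloured by role) in 12 baboons with 6 mapping methods (columns, animals 1 to 12 from left to right within a method), on a log10(count + 1) colour scale. Dark rows across the whole map are transcripts with no counts, and NDUFV1, NDUFC2, NDUFS5, NDUFB5 and NDUFB6 are dark with GSNAP, where each had 0 counts in all 12 animals.

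The transcripts of 4 genes had 0 counts in all 72 columns. They were NDUFA2 (NM_002488), a matrix-arm subunit with a thioredoxin-like fold, NDUFA11 (NM_175614), a multi-span membrane protein, NDUFB3 (NM_002491) and NDUFB4 (NM_004547), both of the membrane arm. A sum of 0 over the 12 animals allows up to 3 counts and covers counting error only. NDUFC1 (NM_002494), a small membrane-arm subunit, had at most 2 counts in any column. Of the core genes, NDUFS1 (NM_005006), the largest iron-sulfur subunit, had 0 to 7 counts with TopHat2 (median 2.5, 30 in all) and 0 counts with each of the other methods. Whether reads of these genes were counted under other isoforms, or were shared by several and so assigned to no transcript, was not tested.

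Besides these transcripts, 5 were detected with some methods and not with others, and 4 of the 5 belong to the membrane arm, as do 20 of the 38. NDUFV1 (NM_007103), the core subunit that binds NADH and the flavin, had 83 to 177 counts with Stampy (median 121), 71 to 151 with Bowtie2 (median 96), 58 to 123 with TopHat2 (median 89.5), 34 to 81 with Stampy-G (median 57), 4 to 19 with Bowtie2-G (median 8) and 0 in every animal with GSNAP. The ranges of Stampy, Bowtie2 and TopHat2 overlapped, while every animal lay lower with Bowtie2-G than any animal with those methods or with Stampy-G. NDUFS5 (NM_004552), a cysteine-rich protein of the intermembrane space, had 145 to 242 counts with Stampy (median 197.5), 48 to 95 with Bowtie2 (median 72.5), 0 to 16 with TopHat2 (median 6.5), 0 or 1 with Stampy-G and 0 with Bowtie2-G and GSNAP. Its counts were thus high on the transcriptome and near 0 or at 0 on the genome, and the ranges of Stampy, Bowtie2 and TopHat2 did not overlap.

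NDUFC2 (NM_004549), a membrane-arm subunit, had 49 to 132 counts with Stampy (median 70.5), 33 to 88 with Bowtie2 (median 54), 14 to 39 with TopHat2 (median 21), 72 to 198 with Stampy-G (median 109), 22 to 57 with Bowtie2-G (median 37.5) and 0 with GSNAP. Here Stampy-G on the genome gave the highest median, above those on the transcriptome, with ranges that overlapped. NDUFB5 and NDUFB6 were low throughout. NDUFB5 (NM_002492), a single-span membrane-arm subunit, had 7 to 21 counts with Stampy (median 12.5), 3 to 14 with Bowtie2 (median 7), 7 to 22 with TopHat2 (median 10), 7 to 22 with Stampy-G (median 13), 0 to 5 with Bowtie2-G (median 0) and 0 with GSNAP. NDUFB6 (NM_002493), another membrane-arm subunit, had 7 to 20 counts with Stampy, 2 to 12 with Bowtie2, 2 to 12 with TopHat2 and 3 to 21 with Stampy-G, and 0 with Bowtie2-G and GSNAP.

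Among the 26 transcripts detected with every method, the summed count over animals was highest with Stampy for 20, with Stampy-G for 4 and with TopHat2 for 2, and lowest with GSNAP for 22. The median total of all counts per column was likewise highest with Stampy (16132598.5) and lowest with GSNAP (8176131). The same ranking over all accessions was not made. The highest sum over methods was 1.41 to 22.7 times the lowest, with a median of 3.59 times. NDUFA6 (1.41 times), a matrix-arm protein of the LYR family, and NDUFS4 (1.46 times), a matrix-arm protein whose loss causes Leigh syndrome in humans, varied least with the method. NDUFB11 (22.7 times), NDUFB10 (11.2 times) and NDUFB7 (9.30 times), all of the membrane arm, varied most.

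NDUFB11 (NM_019056), a single-span membrane-arm subunit, had 284 to 571 counts with Stampy (median 372.5), 267 to 540 with Bowtie2 (median 350.5), 7 to 25 with TopHat2 (median 16), 73 to 155 with Stampy-G (median 108), 18 to 48 with Bowtie2-G (median 31.5) and 14 to 48 with GSNAP (median 28). Every animal was higher on the transcriptome than any animal on the genome, and TopHat2 was the lowest of the 6. NDUFB10 (NM_004548), a membrane-arm protein on the intermembrane side, had 967 to 2849 counts with Stampy (median 1442.5), 518 to 1477 with Bowtie2 (median 765), 421 to 1245 with TopHat2 (median 636), 837 to 2518 with Stampy-G (median 1264.5), 406 to 1111 with Bowtie2-G (median 589) and 84 to 262 with GSNAP (median 124.5). Its range with GSNAP lay below those with the other methods, and the highest value came from animal 9 with all 6.

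NDUFB7 (NM_004146), another cysteine-rich protein of the intermembrane space, had 1219 to 2628 counts with Stampy (median 2298), 696 to 1610 with Bowtie2 (median 1329), 716 to 1504 with TopHat2 (median 1254.5), 1098 to 2276 with Stampy-G (median 1922.5), 453 to 946 with Bowtie2-G (median 740) and 145 to 312 with GSNAP (median 241.5). As for NDUFB10, only GSNAP stood apart from all others. NDUFB1 (NM_004545), a small membrane-arm subunit, had 401 to 749 counts with Stampy (median 527.5), 318 to 601 with Bowtie2 (median 405.5), 299 to 620 with TopHat2 (median 422), 67 to 139 with Stampy-G (median 81), 179 to 374 with Bowtie2-G (median 222.5) and 188 to 382 with GSNAP (median 243.5). It was the 1 transcript of the 26 with its lowest sum under Stampy-G.

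**Figure D2:**
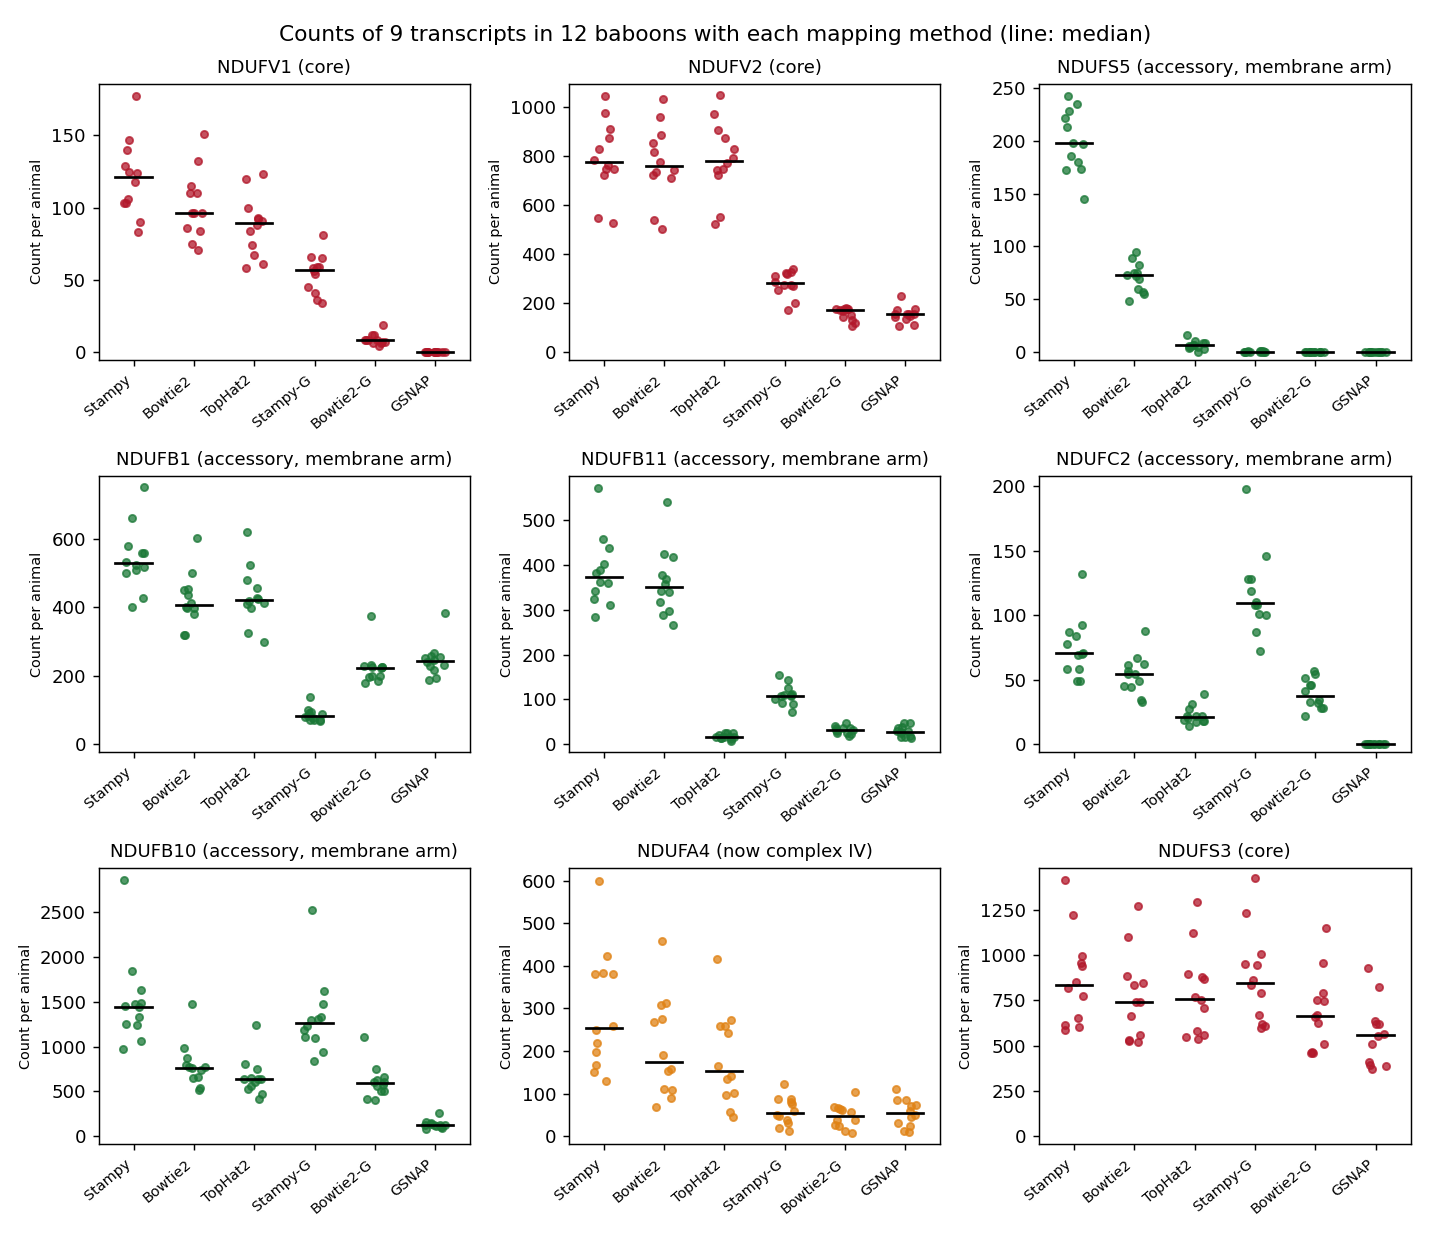
Counts per animal (points, 12 animals) and their median (line) of 9 transcripts with each mapping method, on linear axes that differ between panels. NDUFV1, NDUFC2 and NDUFS5 are at 0 with GSNAP, NDUFB1 has its lowest counts with Stampy-G (67 to 139) and NDUFB11 with TopHat2 (7 to 25), while the ranges of NDUFS3 overlap between all 6 methods.

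The core gene NDUFV2 (NM_021074), the iron-sulfur partner of NDUFV1, had 528 to 1045 counts with Stampy (median 775), 504 to 1033 with Bowtie2 (median 760), 525 to 1050 with TopHat2 (median 782), 173 to 341 with Stampy-G (median 280.5), 107 to 181 with Bowtie2-G (median 170.5) and 106 to 228 with GSNAP (median 154.5). Its values fell into a high group of Stampy, Bowtie2 and TopHat2 and a low group of the other 3 methods, with no overlap between them. NDUFS3 (NM_004551), a core subunit of the matrix arm without a redox centre, had 588 to 1412 counts with Stampy (median 834.5), 519 to 1271 with Bowtie2 (median 741), 539 to 1293 with TopHat2 (median 760), 596 to 1428 with Stampy-G (median 848), 460 to 1152 with Bowtie2-G (median 664) and 373 to 931 with GSNAP (median 559.5). All of these ranges overlapped, although GSNAP gave the lowest count in each of the 12 animals. NDUFS7, which carries the last iron-sulfur cluster before ubiquinone, had medians of 1551 counts with Stampy, 1321 with Bowtie2, 1464 with TopHat2, 1569 with Stampy-G, 965.5 with Bowtie2-G and 552.5 with GSNAP. NDUFS8, another iron-sulfur subunit, had medians of 720 counts with Stampy, 584 with Bowtie2, 612 with TopHat2, 725 with Stampy-G, 469 with Bowtie2-G and 310.5 with GSNAP.

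Of the matrix-arm accessory genes, 8 of 9 were detected with every method. The largest spread between methods among them was that of NDUFA9, a nucleotide-binding protein at the junction of the arms, with medians of 582 counts with Stampy, 332.5 with Bowtie2, 326.5 with TopHat2, 353 with Stampy-G, 197 with Bowtie2-G and 82.5 with GSNAP. NDUFS6, a zinc-binding subunit added late in assembly, had medians of 370 counts with Stampy, 238.5 with Bowtie2, 290 with TopHat2, 367.5 with Stampy-G, 141.5 with Bowtie2-G and 62 with GSNAP. For NDUFA12 the highest median was that of TopHat2, 163.5 counts, beside 126.5 with Stampy, 123.5 with Bowtie2, 97.5 with Stampy-G, 72 with Bowtie2-G and 59 with GSNAP.

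Among the detected membrane-arm genes not described above, NDUFA1, NDUFA3, NDUFA8, NDUFA10, NDUFA13, NDUFB2, NDUFB8 and NDUFB9, the highest summed count over methods was 1.69 (NDUFA8) to 6.07 (NDUFA10) times the lowest. NDUFA13, also known as GRIM-19, had 636 to 1624 counts with Stampy (median 921), 457 to 1135 with Bowtie2 (median 653), 516 to 1384 with TopHat2 (median 776), 634 to 1626 with Stampy-G (median 922), 294 to 731 with Bowtie2-G (median 418) and 199 to 507 with GSNAP (median 293.5). The ranges of Stampy and Stampy-G nearly coincided. NDUFAB1, the acyl carrier protein, had medians of 494.5 counts with Stampy, 388 with Bowtie2, 393 with TopHat2, 433.5 with Stampy-G, 294.5 with Bowtie2-G and 222.5 with GSNAP.

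Pairs of methods were compared over the 12 animals with edgeR's quasi-likelihood test, with the animal as a block and Benjamini-Hochberg adjustment over all transcripts tested. A difference was called at an adjusted p under 0.05, and log2 fold changes are given with an approximate SE. This SE reflects the spread of the difference between animals and can be smaller than counting error, because the columns compared come from the same reads. The adjusted p can be larger than this SE alone would give, so a difference not called can still have the same direction in every animal. The 5 pairs share tables, so their results are not independent of one another. Scaling each table by TMM, a scaling that assumes most transcripts do not differ between tables, in place of the common number of read pairs lowered the median log2 fold change of all transcripts by 0.30 (TopHat2 over Bowtie2-G), 0.74 (TopHat2 over GSNAP), 0.33 (Bowtie2 over Bowtie2-G), 0.42 (Stampy over Bowtie2) and 0.45 (Stampy-G over Bowtie2-G). Directions below hold for reads per read pair, and the split under TMM is given beside each.

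The first pair sets spliced against unspliced mapping with the same base aligner on the same genome. Per the study's methods TopHat2 also tries the transcriptome before the genome, prefers annotated genes and runs Bowtie2 with other seed settings, so the part of splicing alone cannot be told apart. With TopHat2 over Bowtie2-G, 28 of the 38 transcripts passed the filter on low counts, of which 26 were higher and 2 lower. Of all 11146 transcripts tested 70.6% were higher and 8.1% lower. Under TMM the split was 20 higher and 6 lower among the 28, and 3660 higher and 5309 lower among all. The median log2 fold change was 0.59 over the 28 and 0.20 over all transcripts tested. NDUFV1 and NDUFA4 passed the filter through TopHat2 only and NDUFB11 through Bowtie2-G only. Each passed through the method where it was higher, so the filter itself favours the direction of these calls. All 5 core genes tested and all 8 matrix-arm genes were higher with TopHat2, and of 13 membrane-arm genes 11 were higher and 2 lower, whereas under TMM 6 of the 28, NDUFS3 among them, were lower.

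Among the 28 transcripts tested, the largest differences with TopHat2 over Bowtie2-G were in the NADH-binding pair. NDUFV1 was higher with TopHat2 in 12 of 12 animals (log2 fold change 3.30 ± 0.10, adjusted p = 1.44e-13), and so was NDUFV2 (2.34 ± 0.04, adjusted p = 1.53e-16), with no overlap between the methods for either gene. NDUFA4 had 46 to 417 counts with TopHat2 (median 154) and 8 to 104 with Bowtie2-G (median 47.5), which overlapped, and was higher with TopHat2 in 12 of 12 animals (1.94 ± 0.05, adjusted p = 1.34e-14). NDUFA5, a matrix-arm subunit, had 38 to 149 counts with TopHat2 (median 79) and 11 to 47 with Bowtie2-G (median 26.5), a small overlap, and was likewise higher with TopHat2 in 12 of 12 animals (1.54 ± 0.07, adjusted p = 1.41e-11). The other core genes differed less, by log2 fold changes of 0.60 ± 0.01 for NDUFS7 (adjusted p = 4.87e-16), 0.36 ± 0.01 for NDUFS8 (adjusted p = 3.93e-13) and 0.21 ± 0.01 for NDUFS3 (adjusted p = 1.41e-11). The last of these was -0.10 under TMM. NDUFB11 (-0.90 ± 0.10, adjusted p = 1.39e-06) and NDUFC2 (-0.81 ± 0.08, adjusted p = 3.75e-07) were lower with TopHat2 than with Bowtie2-G in 12 of 12 animals. Of the transcripts that did not pass the filter, NDUFB5 summed to 147 counts with TopHat2 and 11 with Bowtie2-G, a ratio of 13.4. NDUFB6 summed to 87 counts with TopHat2 and 0 with Bowtie2-G, at least 29-fold higher against a floor of 3 counts over the 12 animals, and NDUFS5 to 81 and 0, at least 27-fold higher. These ratios, of few counts and not tested, exceed that of NDUFV1 (10.0).

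The spliced aligners were then set against each other. With TopHat2 over GSNAP, 27 of 28 transcripts tested were higher and 1 was lower, beside 93.2% higher and 3.24% lower of all 10747 transcripts tested. Under TMM 22 were higher and 5 lower, beside 4290 and 4591 of all transcripts. The median log2 fold change was 1.41 over the 28, also with genes at 0 set to their lower bound, and 0.72 over all. NDUFV1 and NDUFC2 passed the filter through TopHat2 only and NDUFB11 through GSNAP only. Each passed through the method where it was higher, so the filter itself favours the direction of these calls. NDUFV1 summed to 1051 counts with TopHat2 and 0 with GSNAP, at least 350-fold higher against a floor of 3 counts over the 12 animals (adjusted p = 7.13e-06). NDUFC2 summed to 269 counts with TopHat2 and 0 with GSNAP, at least 89.7-fold higher (adjusted p = 5.19e-05).

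NDUFB7 (log2 fold change 2.37 ± 0.02, adjusted p = 7.24e-20) and NDUFV2 (2.37 ± 0.04, adjusted p = 1.63e-17) were each higher with TopHat2 than with GSNAP in 12 of 12 animals, with no overlap. Among the other core genes the log2 fold change was 1.44 ± 0.02 for NDUFS7 (adjusted p = 2.07e-19), 0.93 ± 0.02 for NDUFS8 (adjusted p = 5.46e-16) and 0.48 ± 0.01 for NDUFS3 (adjusted p = 1.02e-16), which was -0.26 under TMM. NDUFS7 had 1007 to 1855 counts with TopHat2 and 365 to 700 with GSNAP. Its groups did not overlap, while those of NDUFS3 and NDUFS8 did. The exception was NDUFB11, lower with TopHat2 in 11 of 12 animals and higher in 1 (-0.76 ± 0.14, adjusted p = 1.14e-04).

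**Figure D3:**
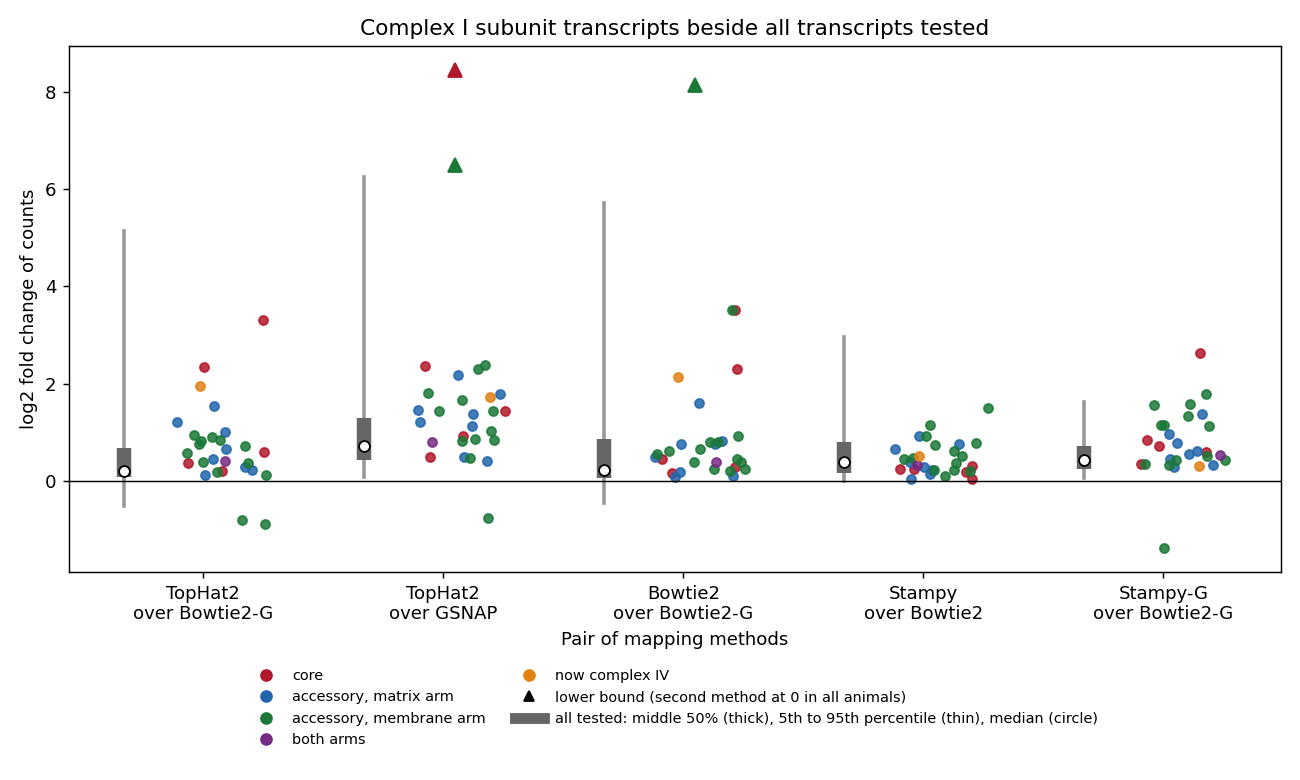
Log2 fold change of counts (vertical axis) of the complex I subunit transcripts tested in 5 pairs of methods (points, coloured by role; triangles are lower bounds for transcripts at 0 with the second method), beside the median, middle 50% and 5th to 95th percentile of all transcripts tested (left of each group). Their median lies above that of all transcripts with TopHat2 over GSNAP (1.41 and 0.72) and slightly below it with Stampy over Bowtie2 (0.36 and 0.38); under TMM scaling the medians of all transcripts drop by 0.30 to 0.74 and some points change side, NDUFS3 in all 5 pairs.

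The next pair changes the reference and keeps the aligner. Per the study's methods Bowtie2 places a read with equally good locations on 1 of them at random. Reads shared by several transcripts may therefore be counted differently on the transcriptome and on the genome, which was not tested. With Bowtie2 over Bowtie2-G, 28 of 29 transcripts tested were higher on the transcriptome and 0 were lower, beside 70.1% higher and 7.29% lower of all 11409 transcripts tested. The lowest log2 fold change of the 29 was 0.08 (NDUFV3), so none could be called lower at any threshold. With DESeq2 the number lower was also 0, while under TMM 18 were higher and 8 lower, beside 3940 and 5705 of all transcripts. The median log2 fold change was 0.55 over the 29 and 0.22 over all. The transcript not called was that of NDUFS4, with 32 to 81 counts with Bowtie2 (median 52.5) and 28 to 71 with Bowtie2-G (median 50). It was nevertheless higher with Bowtie2 in 12 of 12 animals, by ratios of 1.02 to 1.17 (log2 fold change 0.10 ± 0.02, adjusted p = 0.237). NDUFV1, NDUFS5 and NDUFA4 passed the filter through Bowtie2 only, the method where each was higher, so the filter itself favours the direction of these calls.

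NDUFS5 summed to 850 counts with Bowtie2 and 0 with Bowtie2-G, at least 283-fold higher (adjusted p = 4.74e-04). NDUFV1 (log2 fold change 3.52 ± 0.08, adjusted p = 2.80e-14), NDUFB11 (3.50 ± 0.05, adjusted p = 3.03e-16) and NDUFV2 (2.30 ± 0.04, adjusted p = 9.15e-16) were higher with Bowtie2 in 12 of 12 animals without overlap. The values of NDUFS7 (0.45 ± 0.01, adjusted p = 1.70e-13), NDUFS8 (0.28 ± 0.01, adjusted p = 3.53e-11) and NDUFS3 (0.16 ± 0.01, adjusted p = 5.64e-10) overlapped between the methods although each was higher with Bowtie2 in 12 of 12 animals, and under TMM NDUFS8 (-0.054) and NDUFS3 (-0.17) were lower. Of the core genes, NDUFV1 and NDUFV2 thus differed by several fold between the references and the other 3 tested by ratios of summed counts of 1.12 to 1.36.

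The last 2 pairs set Stampy, a seed aligner, against Bowtie2. On the transcriptome, 27 of 29 transcripts tested were higher with Stampy and 0 were lower, beside 82.6% higher and 3.36% lower of all 13081 transcripts tested. The lowest log2 fold change of the 29 was 0.03 (NDUFV2), so none could be called lower at any threshold. With DESeq2 the number lower was also 0, and under TMM 10 were higher and 14 lower, beside 4944 and 5544 of all transcripts. The median log2 fold change was 0.36 over the 29 and 0.38 over all. All 29 passed the filter with either method. The transcripts not called were those of NDUFV2 and NDUFA12. The counts of NDUFV2 were higher with Stampy in 12 of 12 animals by ratios of only 1.01 to 1.05 (adjusted p = 0.165). NDUFA12 had 80 to 186 counts with Stampy (median 126.5) and 76 to 184 with Bowtie2 (median 123.5). It too was higher with Stampy in 12 of 12 animals, by ratios of 1.01 to 1.07 (adjusted p = 0.547).

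Of the 29 transcripts tested, NDUFS5 had the largest difference with Stampy over Bowtie2 (log2 fold change 1.49 ± 0.03, adjusted p = 1.48e-14). NDUFA10, a membrane-arm protein with a nucleoside-kinase fold, had 676 to 1330 counts with Stampy (median 813) and 283 to 591 with Bowtie2 (median 363.5) (1.15 ± 0.02, adjusted p = 1.24e-15). NDUFV3, a peripheral subunit next to NDUFV1 and NDUFV2, had 597 to 789 counts with Stampy (median 674.5) and 306 to 412 with Bowtie2 (median 355) (0.92 ± 0.02, adjusted p = 9.86e-15). NDUFS5, NDUFA10 and NDUFV3 did not overlap between the methods, whereas NDUFB10 did (0.92 ± 0.01, adjusted p = 7.35e-18). The 4 core genes called had log2 fold changes of 0.30 ± 0.01 (NDUFS8, adjusted p = 8.27e-14), 0.25 ± 0.01 (NDUFS7, adjusted p = 5.44e-13), 0.24 ± 0.02 (NDUFV1, adjusted p = 2.22e-05) and 0.18 ± 0.01 (NDUFS3, adjusted p = 3.80e-11), and under TMM each of the 4, and NDUFV2, was lower with Stampy.

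On the genome, 27 of 28 transcripts tested were higher with Stampy-G than with Bowtie2-G and 1 was lower, beside 89.7% higher and 1.86% lower of all 10738 transcripts tested. Under TMM 17 were higher and 5 lower, beside 3698 and 4187 of all transcripts. The median log2 fold change was 0.60 over the 28 and 0.42 over all. NDUFV1 and NDUFA4 passed the filter through Stampy-G only, the method where both were higher, so the filter itself favours the direction of these calls. The largest differences among the 28 were in NDUFV1 (2.62 ± 0.09, adjusted p = 2.56e-13), NDUFB11 (1.79 ± 0.06, adjusted p = 4.75e-14), NDUFC2 (1.57 ± 0.06, adjusted p = 2.96e-13) and NDUFA10 (1.56 ± 0.02, adjusted p = 2.02e-19), each higher with Stampy-G in 12 of 12 animals and without overlap. The counts of NDUFB5 (164 with Stampy-G and 11 with Bowtie2-G, a ratio of 14.9) and NDUFB6 (108 with Stampy-G and 0 with Bowtie2-G, at least 36-fold higher), neither of which passed the filter, were further apart than those of NDUFV1 (a ratio of 6.23) and were not tested.

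NDUFB1 ran the other way, with 67 to 139 counts with Stampy-G and 179 to 374 with Bowtie2-G (log2 fold change -1.38 ± 0.04, adjusted p = 1.57e-14), lower with Stampy-G in 12 of 12 animals and without overlap. The other core genes were higher with Stampy-G by log2 fold changes of 0.84 ± 0.03 (NDUFV2, adjusted p = 1.02e-13), 0.72 ± 0.01 (NDUFS7, adjusted p = 2.28e-17), 0.59 ± 0.01 (NDUFS8, adjusted p = 5.15e-16) and 0.36 ± 0.01 (NDUFS3, adjusted p = 2.06e-15), the last of which was -0.10 under TMM.

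Summed over the 38 transcripts, the level was 590 ± 105 CPM with Stampy, 428 ± 79.0 with Bowtie2, 436 ± 77.5 with TopHat2, 473 ± 83.4 with Stampy-G, 282 ± 50.8 with Bowtie2-G and 181 ± 32.96 with GSNAP (SD, n = 12 animals). Within an animal the ratio of these sums varied little. It was 1.55 ± 0.02 for TopHat2 over Bowtie2-G, 2.41 ± 0.05 for TopHat2 over GSNAP, 1.52 ± 0.03 for Bowtie2 over Bowtie2-G, 1.38 ± 0.02 for Stampy over Bowtie2 and 1.68 ± 0.02 for Stampy-G over Bowtie2-G (SD, n = 12 animals), higher with the first method in 12 of 12 animals each. The ratio of all counts in the tables had medians of 1.21, 1.64, 1.20, 1.22 and 1.32 over the animals in the same 5 pairs. Leaving out NDUFA4 changed no ratio of the sums by more than the spread between animals.

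Animals differed in the level of these transcripts in a pattern that recurred with every method, whose columns share their reads. The summed level with TopHat2 was 312 CPM in animal 6, 563 in animal 8 and 438 at the median, and animals 6 and 8 were also the lowest and the highest with the other 5 methods. Relative to the total of the table instead of the read pairs, animal 8 was again the highest and animal 11 the lowest with all 6 methods. Animal 8 had the highest level of 10 of the 29 transcripts detected with TopHat2 and animal 2 of 11, beside 7.14% and 17.4% of all 10872 accessions detected. Animal 5, which had the highest level of 44.4% of all accessions, had that of 3 of the 29, NDUFA10, NDUFS8 and NDUFV1. Animal 6 had the lowest level of 9 of the 29 and of 26.6% of all accessions.

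Against the median of the 12 animals, the median log2 level of the 29 transcripts with TopHat2 was 0.44 in animal 8 and 0.41 in animal 2, and -0.41 in animal 6, -0.34 in animal 11 and -0.32 in animal 4. Over all detected accessions the same value was 0.02 in animal 8, 0.25 in animal 2, -0.26 in animal 6, -0.17 in animal 11 and -0.01 in animal 4. In animal 5 the order was turned round, with 0.02 for the 29 transcripts and 0.44 for all accessions. Of the animals named here, the transcripts thus stood above the bulk of accessions in animals 2 and 8. They stood below it in animals 4, 5, 6 and 11. The gap was widest in animals 8, 5 and 4. In blood, fewer cells of a type and less RNA per cell cannot be told apart, and the part of cell composition in these differences was not tested.

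**Figure D4:**
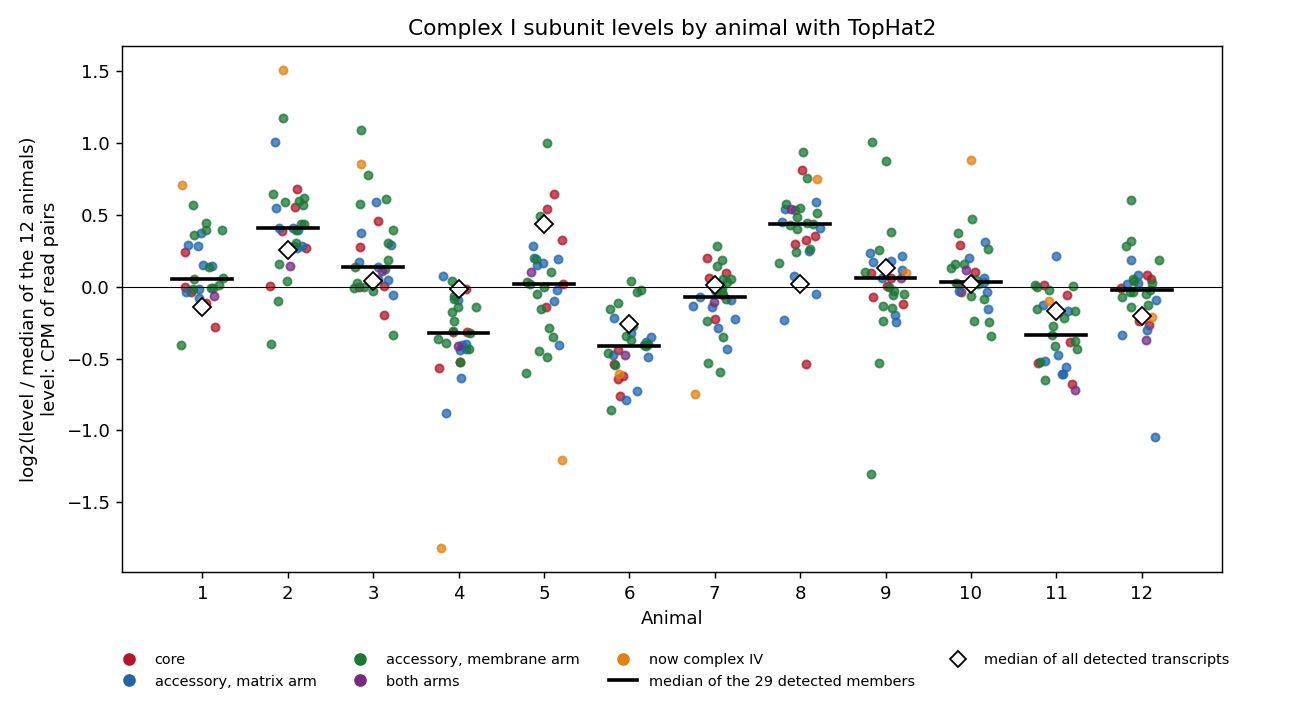
Log2 level (CPM) of each of the 29 complex I subunit transcripts detected with TopHat2, relative to its median over the 12 animals (points, coloured by role), with their median per animal (line) and the median of all 10872 detected accessions (diamond). The line lies above the diamond in animal 8 (0.44 and 0.02) and below it in animal 5 (0.02 and 0.44).

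The coefficient of variation over animals had a median of 25.4% for the 29 transcripts with TopHat2, beside 28.5% for all detected accessions. NDUFA4, now counted with complex IV, varied most (61.5%), with 1.24 to 12.5 CPM and the highest level in animal 2 and the lowest in animal 4 with all 6 methods. NDUFB5 (44.7%), at 7 to 22 counts, and NDUFA5 (39.1%), lowest in animal 12 with all 6 methods, came next. NDUFV3 (12.5%), NDUFB9 (15.7%), a membrane-arm protein of the LYR family, and NDUFB1 (17.7%) varied least. NDUFV3 had 9.01 to 12.99 CPM over the 12 animals and was highest in animal 2, while NDUFB9 had 38.7 to 66.6 and was highest in animal 8.

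Single genes departed from the common pattern of animals. NDUFB10 was highest in animal 9 with all 6 methods, with 35.1 CPM with TopHat2, where the next animal had 24.5 and the lowest 12.1. NDUFA10 was highest in animal 5 with all 6 methods, with 19.7 CPM with TopHat2 and 14.9 in the next animal. NDUFS8 was likewise highest in animal 5 with all 6 methods and NDUFV1 with the 4 that detected it, Stampy, Bowtie2, TopHat2 and Stampy-G. NDUFB7 had its highest level in animal 3 and its lowest in animal 5 with 5 of the 6 methods each.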

How the data were processed

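RNA of 12 baboons was sequenced as paired reads of 50 bases. Per the study's methods and the notes submitted with the samples, reads were trimmed by the authors with Trimmomatic 0.25, mapped to the human reference (hg19) with Bowtie2 2.0.6, TopHat2 2.0.7, Stampy and GSNAP, and counted per transcript with HTSeq 0.5.4 in its intersection-nonempty mode, which assigns to no transcript a read that several share. The deposited values are raw counts, with no normalization. The strand setting of the counting is not given in the sources used here, so reads of overlapping antisense transcripts cannot be told apart, and neither can reads of near-identical copies such as pseudogenes. In 6 tables all 72 columns belong to the 12 animals, matched by number alone, and 0 columns belong to no sample.

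The members and lists were chosen with earlier results of these data known. 1 member enters the counts and sums over the group and is not reported here on its own. Rows of 1 accession were summed. Columns of 2 methods were compared with edgeR 4.0.16 (R 4.3.3; filterByExpr, glmQLFit, glmQLFTest), with the animal as a block, the read pairs the study lists after quality control as the library size of both columns and a threshold of 0.05 on the Benjamini-Hochberg adjusted p. The SE is the log2 fold change divided by the root of F. The pairing follows from the design, since an animal has the same reads in both columns. In the 5 pairs, deviations from the method means correlated by 0.883 to 0.979 within an animal and by at most 0.505 between animals. The 12 animals are separate individuals with 1 library each. The test was also run on simulated counts, drawn independently for both columns of an animal. The real columns share their reads, so that run cannot show how the test behaves on them.

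Named in each comparison were the 7 core genes where tested, the 4 largest differences called in each direction, transcripts under 5 counts in an animal, and the 3 highest and 3 lowest coefficients of variation with TopHat2. Other genes given with values, and the ranking of methods by summed count, were chosen after the values were seen. A fold against a method at 0 uses a floor of 3 counts over the 12 animals. Alternatives were TMM scaling, DESeq2 1.42.0, no filter, no block, rows not summed, leaving out animal 5 or 11, count minimums of 1 and 10, levels per table total and leaving out NDUFA4. Lists of assembly factors, of the other respiratory complexes and of blood cell markers were not used, since nothing at hand pairs gene names with accessions, and neither were transcript lengths or sequences. Figures were drawn with matplotlib 3.10.9 in Python 3.11.15.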

Additional observations from a re-analysis of the deposited data

How the results depend on the processing

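Of 42 named differences between methods, all 42 kept direction and call with DESeq2, without the filter on low counts, with rows of 1 accession not summed, without animal 5 and without animal 11. TMM scaling kept 32 and turned 10 round: NDUFS3 to -0.10 (TopHat2 over Bowtie2-G), -0.26 (TopHat2 over GSNAP), -0.17 (Bowtie2 over Bowtie2-G), -0.24 (Stampy over Bowtie2) and -0.10 (Stampy-G over Bowtie2-G), NDUFS8 to -0.054 (Bowtie2 over Bowtie2-G) and -0.11 (Stampy over Bowtie2), and with Stampy over Bowtie2 also NDUFS7 to -0.17, NDUFV1 to -0.17 and NDUFV2 to -0.39. TMM sets the bulk of transcripts to no difference by construction. It left 20 transcripts of the group higher and 6 lower with TopHat2 over Bowtie2-G (all transcripts 3660 and 5309), 22 and 5 with TopHat2 over GSNAP (4290 and 4591), 18 and 8 with Bowtie2 over Bowtie2-G (3940 and 5705), 10 and 14 with Stampy over Bowtie2 (4944 and 5544) and 17 and 5 with Stampy-G over Bowtie2-G (3698 and 4187). The share of higher among all calls thus moved to 40.8% under TMM, against 89.7%, in the first pair, to 48.3%, against 96.6%, in the next, to 40.9%, against 90.6%, in the third, to 47.1%, against 96.1%, in the fourth and to 46.9%, against 98.0%, in the last.

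Without the replicate block, 33 named differences kept their call and 9 kept only their direction. With TopHat2 over Bowtie2-G, 3613 of all transcripts were then called higher and 553 lower, and 18 and 2 of the group. With TopHat2 over GSNAP these were 8250 and 277, and 27 and 1 of the group. With Bowtie2 over Bowtie2-G they were 4065 and 542, and 19 and 0 of the group. With Stampy over Bowtie2 they were 6253 and 283, and 13 and 0 of the group. With Stampy-G over Bowtie2-G they were 5139 and 92, and 21 and 1 of the group. With the block, 26, 27, 28, 27 and 27 of the group were higher in the same order. An unpaired fit adds the differences between animals to the error. Without the filter, which adds transcripts of low count, all transcripts called lower were 1581 (TopHat2 over Bowtie2-G), 655 (TopHat2 over GSNAP), 1605 (Bowtie2 over Bowtie2-G) and 340 (Stampy-G over Bowtie2-G), and 17062 were higher with Stampy over Bowtie2. Relative to each table's total counts, the ratio of the summed levels was 1.28, 1.46, 1.25, 1.13 and 1.27 in the 5 pairs as ordered in the report, still above 1. Detection counts with minimums of 1 and 10 stayed within 1.5 times. Transcripts under about 20 counts, NDUFB5, NDUFB6, NDUFS5 with TopHat2, NDUFV1 with Bowtie2-G and NDUFB11 with TopHat2, have wide counting errors. An animal's 6 columns hold the same reads, so counts that are low or 0 with 1 method and much higher with another (NDUFV1, NDUFS5, NDUFB11) differ at equal depth. Where a transcript had 0 counts in all 72 columns, it was not detected with any of these methods. The parts of depth, mapping and counting in this were not tested. Columns were matched to animals by number alone.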
